A study of Mus musculus with 6 samples.

Results

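Transcripts of 8 genes that handle arginine, nitric oxide and itaconate were followed in RAW264.7 cells with the acoustics on or off. The genes were listed by name, with earlier results of these data known, and matched by symbol in a table of 16108 genes. They were Nos2, Acod1, Arg1, Arg2, Slc7a2, Ass1, Asl and Gch1, and 8 of 8 were found. RAW264.7 is an established mouse macrophage-like cell line, so the data describe 1 line and no primary macrophage. Cells were seeded on acoustic devices and left overnight to attach. In the acoustics-on group (3 libraries) the devices were then driven for 48 h at 18 V peak to peak and 5 kHz. In the acoustics-off group (3 libraries) cells stayed in culture for the same 48 h without the drive, and a petri dish control named by the study was not analysed here. Both groups carry the same unmodified line, with no added stimulus named in the labels.

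Macrophages can spend arginine in competing ways. The inducible nitric oxide synthase turns arginine into nitric oxide and citrulline, and the enzymes argininosuccinate synthase and argininosuccinate lyase turn citrulline back into arginine. Arginases instead split arginine into ornithine and urea, and ornithine feeds polyamine and proline synthesis. Itaconate is made from the citrate cycle intermediate cis-aconitate by the enzyme that Acod1 encodes, and it is a hallmark metabolite of macrophages stimulated with bacterial products or interferon. Nitric oxide synthase and Acod1 are classically induced together in such cells, while Arg1 is induced by interleukin-4.

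Levels are given in FPKM, fragments scaled to transcript length and to library size, as the authors deposited them. The FPKM of a library summed to between 716509 and 1000722. Tests used limma on log2(FPKM + 1), fitted on all 11664 genes with at least 0.5 FPKM in at least 3 libraries, and a gene passed at a Benjamini-Hochberg adjusted p under 0.05. On that scale the change of a gene with a low level is understated. Among all genes tested, 175 rose and 67 fell with acoustics on. All 8 macrophage markers were detected, from Mertk (2.04 to 6.03 FPKM over the libraries) to Lyz2 (16356 to 26096). Their sum, mostly Lyz2, was 18758 to 25997 FPKM in acoustics-on libraries and 27124 to 29292 FPKM in acoustics-off libraries. Spi1 and Fcgr1 overlapped between the groups. Every other marker of the 8 was lower in each acoustics-on library, an order found for 17.7% of genes tested. The part of this difference in the results was not tested. Libraries of both groups differed in their trend with transcript length. The rank correlation across 10453 genes between length and the difference from the acoustics-off mean was -0.59, -0.47 and 0.03 in acoustics-on replicates 1, 2 and 3. For acoustics-off replicates 1, 2 and 3, each set against the other acoustics-off libraries, the values were 0.26, -0.32 and 0.04. Genes are not independent replicates in such a correlation.

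Of the 8 genes, 7 passed the filter on low values, and Slc7a2 did not. Acod1, Ass1 and Gch1 rose with acoustics on and 0 of the 7 fell, where 1.5% of all genes tested were called higher and 0.574% lower. At an unadjusted p under 0.05 (limma), 5 of the 7 were higher and 0 lower, where 19.7% of all genes tested passed in either direction. In 5 of the 7, Nos2, Acod1, Ass1, Asl and Gch1, every acoustics-on library lay above every acoustics-off library, an order found for 17.1% of genes tested. Nos2 passed the filter through its acoustics-on libraries alone, so its higher level there is partly built into the count. Arg1 and Arg2 overlapped between the groups in FPKM as deposited. In bulk RNA, more cells with a transcript and more transcript per cell cannot be told apart. The authors' deposited table called 5 of the 8 higher at an adjusted p under 0.05 (Nos2, Acod1, Slc7a2, Ass1 and Gch1) and 0 lower, where it called 5.08% of its genes higher and 2.49% lower. The 8 genes were chosen with earlier results of these data known, so none of these shares tests the list.

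**Figure D1:**
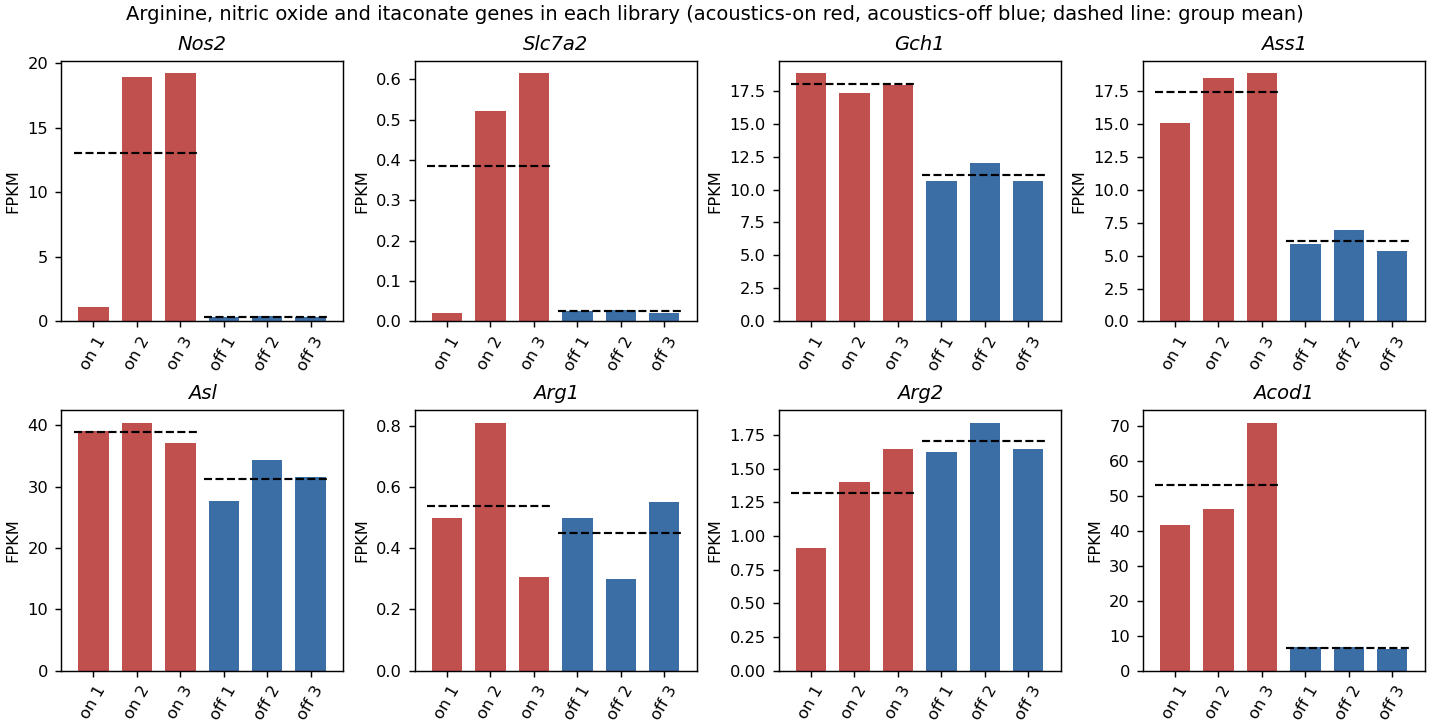
FPKM of each of the 8 genes (vertical axes, 1 scale per gene) in 3 acoustics-on libraries (red, left) and 3 acoustics-off libraries (blue, right), with dashed lines at group means. Nos2 and Slc7a2 are high in acoustics-on replicates 2 and 3 and low in replicate 1, while Acod1, Ass1 and Gch1 are higher in each acoustics-on library.

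RefSeq promoters on build GRCm38.p6 were found for 3 of the 8 genes, Acod1, Ass1 and Gch1, and these are shown because they had an entry and are the 3 genes that rose. The search covered 250 bases before the RefSeq start on both strands, and the printed part stops before the earlier of the RefSeq and GENCODE M21 start sites. Each runs 5′ to 3′ on the strand of its gene, with motif matches in capitals. Acod1 is at chr14:103046762-103046976 (plus strand), Ass1 at chr2:31470020-31470206 (plus strand) and Gch1 at chr14:47189414-47189663 (minus strand).
Acod1: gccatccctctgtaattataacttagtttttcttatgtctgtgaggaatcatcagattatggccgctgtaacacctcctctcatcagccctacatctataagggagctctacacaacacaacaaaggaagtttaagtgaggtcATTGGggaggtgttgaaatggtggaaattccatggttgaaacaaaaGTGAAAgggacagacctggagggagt
Ass1: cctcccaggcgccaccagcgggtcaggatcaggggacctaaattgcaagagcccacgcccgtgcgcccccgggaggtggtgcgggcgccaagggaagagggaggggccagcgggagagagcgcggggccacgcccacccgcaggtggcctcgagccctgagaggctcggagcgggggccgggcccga
Gch1: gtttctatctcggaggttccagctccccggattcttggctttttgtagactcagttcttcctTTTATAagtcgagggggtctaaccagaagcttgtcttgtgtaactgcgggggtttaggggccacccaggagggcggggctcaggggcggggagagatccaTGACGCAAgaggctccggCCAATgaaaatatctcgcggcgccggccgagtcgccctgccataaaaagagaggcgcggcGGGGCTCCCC

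The searched motifs were the kappa B consensus, the interferon-stimulated response element (ISRE), a short interferon regulatory factor site (GTGAAA), the gamma-activated element (TTCNNNGAA), the antioxidant element (TGACNNNGC), AP-1 (TGANTCA), the hypoxia element (ACGTG), the CCAAT box (CCAAT), a cAMP-like element (TGACGNNA) and the TATA box (TATAAA). In the Acod1 sequence the capitals mark a CCAAT box on the opposite strand, read as ATTGG, and the short site GTGAAA at -61 to -56 from the RefSeq start. The short site occurs in 11.1% and the CCAAT box in 33.9% of 32851 RefSeq promoter windows of the same length. Beyond the printed part, the Acod1 window also held a TATA box at -28 to -23 and a hypoxia element at -18 to -14. The Gch1 capitals mark, in order, a TATA box letter match on the opposite strand at -188 to -183, the cAMP-like element TGACGCAA at -88 to -81, a CCAAT box at -70 to -66 and a kappa B match at -10 to -1 that reads on both strands. The cAMP-like element occurs in 5.66% of windows, the kappa B consensus in 7.25% and the TATA box in 12.4%. The printed Ass1 sequence held no match, and the rest of its window held the hypoxia element on both strands in overlap between -36 and -31 (16.6% of windows). The ISRE (2.98% of windows), the gamma-activated element (7.02%), the antioxidant element (10.2%) and AP-1 (6.75%) had no match in the 3 windows. A match is a match of letters, and no factor was measured at these genes.

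Nos2 encodes the inducible nitric oxide synthase (chromosome 11, 78920787 to 78960254, plus strand, GRCm38). It had 1.13, 18.9 and 19.2 FPKM in acoustics-on replicates 1, 2 and 3, and 0.32, 0.44 and 0.34 FPKM in acoustics-off replicates 1, 2 and 3. All 3 acoustics-on libraries were above all 3 acoustics-off libraries, but replicate 1 was 3.09 times the acoustics-off mean while replicates 2 and 3 were 51.8 and 52.7 times that mean. The log2 difference was 2.80 (SE 0.82, 95% confidence interval 0.86 to 4.74) and did not pass (limma, adjusted p = 0.15). Without acoustics-on replicate 1 it was 3.88 (interval 3.64 to 4.12) and passed (limma, adjusted p = 8.9e-05), where 4.75% of genes were called higher and 3.08% lower without that library. That fit kept the genes chosen on all 6 libraries: only 2 of the remaining libraries reached 0.5 FPKM for Nos2, so under a filter applied anew it would not have been tested. In the authors' deposited table the log2 fold change was 5.16 (SE 1.02, adjusted p = 2.7e-05).

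The spread of Nos2 inside the acoustics-on group was among the widest in the data. Its range there was 3.25 on the log2(FPKM + 1) scale, and 8 of the 11664 genes tested had a wider one. Of those 8, 2 had a protein-coding transcript in GENCODE, Saa3 and Gm28036, named here after their values were seen. Saa3, an acute-phase serum amyloid gene, had 13.4, 156.6 and 160.2 FPKM in acoustics-on replicates 1, 2 and 3, and 1.69, 3.32 and 2.92 FPKM in the acoustics-off libraries. Gm28036 had 0, 9.21 and 8.73 FPKM in acoustics-on replicates 1, 2 and 3. It had 11.7, 10.5 and 13.4 FPKM in the acoustics-off libraries, so it was not higher with acoustics on. Acod1 had a range of 0.75 within the acoustics-on group, and Ass1, Asl and Gch1 had ranges of 0.31, 0.12 and 0.11. After each library's FPKM was corrected for transcript length and GC content, Nos2 stood at 1.37, 19.3 and 18.4 FPKM in acoustics-on replicates 1, 2 and 3. Its log2 difference was then 2.86 and did not pass (limma, adjusted p = 0.079), where 3.2% of genes were called higher and 3.21% lower. With acoustics-on replicate 1 also left out, and the same genes kept, it was 3.89 and passed (limma, adjusted p = 2.4e-05), where 6.44% of genes were called higher and 7.69% lower.

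Slc7a2 encodes CAT2, the inducible cationic amino acid transporter that brings arginine into macrophages (chromosome 8, 40862396 to 40922308, plus strand). It had 0.02, 0.52 and 0.61 FPKM in acoustics-on replicates 1, 2 and 3, and 0.03, 0.03 and 0.02 FPKM in acoustics-off replicates 1, 2 and 3. The groups overlapped, since acoustics-on replicate 1 was as low as the acoustics-off libraries while replicates 2 and 3 were 20.8 and 24.5 times the acoustics-off mean. It reached 0.5 FPKM in too few libraries to be tested. With no filter on low values its log2 difference was 0.41 (SE 0.17) and did not pass (limma, adjusted p = 0.29). In the authors' deposited table it was higher with acoustics on, with a log2 fold change of 3.95 (SE 0.94, adjusted p = 0.0011) and a mean of 43.9 normalised reads. Spreading that mean over the libraries by their FPKM gave about 4.30, 111.6 and 131.5 reads in acoustics-on replicates 1, 2 and 3, and 5.77, 5.85 and 4.48 reads in the acoustics-off libraries. A few reads thus stand behind each low value, and acoustics-on replicate 1 could not be told from the acoustics-off libraries at this depth. The longest Slc7a2 transcript has 7910 bases. After the correction for length and GC content the gene was at 0.034, 0.54 and 0.53 FPKM in acoustics-on replicates 1, 2 and 3. Acoustics-off replicates 1, 2 and 3 were then at 0.023, 0.025 and 0.018 FPKM, so acoustics-on replicate 1 lay just above them. Overlap of the groups thus depended on that correction, and the low values rest on a few reads. Nos2 and Slc7a2 were both far higher in acoustics-on replicates 2 and 3 than in replicate 1. In FPKM as deposited, replicate 1 was above every acoustics-off library for Nos2 but not for Slc7a2.

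Gch1 encodes GTP cyclohydrolase 1, which starts the synthesis of tetrahydrobiopterin, a cofactor that nitric oxide synthases need (chromosome 14, 47153895 to 47189413, minus strand). It had 18.8, 17.3 and 17.9 FPKM in acoustics-on replicates 1, 2 and 3, and 10.6, 12.0 and 10.6 FPKM in acoustics-off replicates 1, 2 and 3. The groups did not overlap and the acoustics-on libraries were close to each other, replicate 1 included. Gch1 rose by a log2 difference of 0.65 (SE 0.12, 95% confidence interval 0.37 to 0.93), near the threshold (limma, adjusted p = 0.046). The call was lost without acoustics-on replicate 2 (limma, adjusted p = 0.059) or 3 (0.085) and without acoustics-off replicate 1 (0.27), 2 (0.19) or 3 (0.28), while the difference stayed between 0.62 and 0.71 with any 1 library left out. In the authors' deposited table its log2 fold change was 0.70 (SE 0.14, adjusted p = 7.3e-05).

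Ass1 encodes argininosuccinate synthase, which joins citrulline and aspartate and limits the return of citrulline to arginine (chromosome 2, 31470207 to 31520672, plus strand). It had 15.1, 18.5 and 18.9 FPKM in acoustics-on replicates 1, 2 and 3, and 5.92, 6.98 and 5.37 FPKM in acoustics-off replicates 1, 2 and 3. Each acoustics-on library was at least 2.47 times the acoustics-off mean, and the groups did not overlap. Ass1 rose, with a log2 difference of 1.38 (SE 0.15, 95% confidence interval 1.03 to 1.74, limma adjusted p = 0.0095). Without acoustics-off replicate 1, 2 or 3 it no longer passed (limma, adjusted p = 0.082, 0.055 and 0.077), with differences of 1.37, 1.47 and 1.31. In the authors' deposited table its log2 fold change was 1.52 (SE 0.20, adjusted p = 3.6e-12).

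Asl encodes argininosuccinate lyase, which releases arginine and fumarate in the next step (chromosome 5, 130011258 to 130029247, minus strand). It had 39.0, 40.4 and 37.2 FPKM in acoustics-on replicates 1, 2 and 3, and 27.7, 34.2 and 31.6 FPKM in acoustics-off replicates 1, 2 and 3. The groups did not overlap, but the gap between them was narrower than the spread of the acoustics-off libraries. The log2 difference was 0.31 (SE 0.12, 95% confidence interval 0.02 to 0.61) and did not pass (limma, adjusted p = 0.23). It did not pass in the authors' deposited table either (log2 fold change 0.32, adjusted p = 0.23). Asl was the most abundant of the 8 transcripts with acoustics off, at 31.2 ± 3.31 FPKM (SD, n = 3).

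Arg1 encodes the cytosolic arginase (chromosome 10, 24915221 to 24927484, minus strand), and Arg2 the mitochondrial one (chromosome 12, 79130777 to 79156301, plus strand). Arg1 had 0.50, 0.81 and 0.31 FPKM in acoustics-on replicates 1, 2 and 3, and 0.50, 0.30 and 0.55 FPKM in acoustics-off replicates 1, 2 and 3. The groups overlapped throughout, with acoustics-on replicate 2 highest and acoustics-off replicate 2 lowest of the 6 libraries. Its log2 difference was 0.08 (SE 0.15, 95% confidence interval -0.29 to 0.44, limma adjusted p = 0.78), and without acoustics-on replicate 2 the difference was -0.05. The authors' deposited table gave a log2 fold change of 0.26 (adjusted p = 0.84) and a mean of 27.1 normalised reads. Arg2 had 0.91, 1.40 and 1.65 FPKM in acoustics-on replicates 1, 2 and 3, and 1.63, 1.84 and 1.65 FPKM in acoustics-off replicates 1, 2 and 3. Its lowest value was in acoustics-on replicate 1, and acoustics-on replicate 3 lay inside the acoustics-off range. The log2 difference was -0.24 (SE 0.15, 95% confidence interval -0.60 to 0.13) and did not pass (limma, adjusted p = 0.40). In the authors' deposited table Arg2 had a log2 fold change of -0.37 (adjusted p = 0.55). After correction for length and GC content Arg2 stood at 0.74, 1.28 and 1.68 FPKM in acoustics-on replicates 1, 2 and 3. Acoustics-off replicates 1, 2 and 3 then had 1.83, 2.00 and 1.79 FPKM, so the groups no longer overlapped. Before the correction 17.7% of genes tested had such an order, lower with acoustics on, and the share after it was not computed. The corrected log2 difference was -0.39 and did not pass (limma, adjusted p = 0.20), where 3.2% of genes were called higher and 3.21% lower.

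Acod1 encodes aconitate decarboxylase 1, the enzyme that makes itaconate (chromosome 14, 103046977 to 103056573, plus strand). It had 41.6, 46.2 and 70.9 FPKM in acoustics-on replicates 1, 2 and 3, and 6.58, 6.70 and 6.13 FPKM in acoustics-off replicates 1, 2 and 3. The 3 acoustics-on libraries were 6.43, 7.14 and 10.95 times the acoustics-off mean, so replicate 1, with its low Nos2, still had a high Acod1 level. Acod1 rose by a log2 difference of 2.81 (SE 0.20, 95% confidence interval 2.33 to 3.30, limma adjusted p = 0.0026), the 11th smallest p of all genes tested. The call held when any 1 of the 6 libraries was omitted, with adjusted p between 0.00087 and 0.025 (limma). In the authors' deposited table its log2 fold change was 3.03 (SE 0.24, adjusted p = 4.8e-32).

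**Figure D2:**
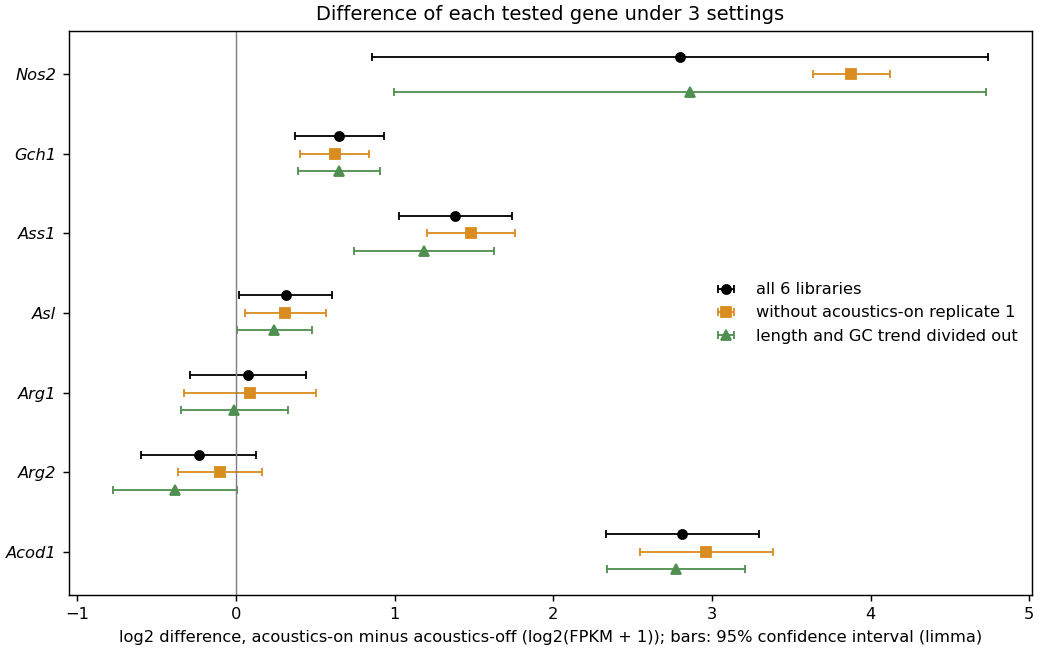
Log2 difference, acoustics-on minus acoustics-off, of the 7 genes tested (horizontal axis, log2(FPKM + 1) units, with 95% confidence intervals from limma) with all 6 libraries, without acoustics-on replicate 1, and after the length and GC correction. The Nos2 interval runs from 0.86 to 4.74 with all libraries and from 3.64 to 4.12 without acoustics-on replicate 1. In the same order of settings, Acod1 stands at 2.81, 2.96 and 2.77, Ass1 at 1.38, 1.48 and 1.18, and Gch1 at 0.65, 0.62 and 0.65.

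FPKM is a value per length, so levels can be set between genes within a library. The levels here are not corrected for the trends with length that differ between libraries. With acoustics on, the mean levels ran in the order Acod1 (52.9 ± 15.7 FPKM, SD, n = 3), Asl (38.9 ± 1.63), Gch1 (18.0 ± 0.75), Ass1 (17.5 ± 2.10), Nos2 (13.1 ± 10.4), Arg2 (1.32 ± 0.38), Arg1 (0.54 ± 0.26) and Slc7a2 (0.39 ± 0.32). The ranges of neighbours overlapped for Gch1 and Ass1, for Ass1 and Nos2, for Nos2 and Arg2, and for Arg1 and Slc7a2. With acoustics off, the order was Asl (31.2 ± 3.31 FPKM), Gch1 (11.1 ± 0.81), Acod1 (6.47 ± 0.30), Ass1 (6.09 ± 0.82), Arg2 (1.71 ± 0.12), Arg1 (0.45 ± 0.13), Nos2 (0.36 ± 0.06) and Slc7a2 (0.03 ± 0.004). There the ranges overlapped for Acod1 and Ass1, and for Arg1 and Nos2. Acod1 was the most abundant of the 8 in each acoustics-on library, and Asl in each acoustics-off library.

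The synthase and the cytosolic arginase use the same substrate, and their levels were set against each other within each library. Arg2, the other arginase gene, was above Arg1 in every library and was left out of this comparison. In acoustics-on replicate 1 it had 0.91 FPKM beside 1.13 FPKM of Nos2, and it was above Nos2 in each acoustics-off library. The Nos2 level was 2.25, 23.3 and 62.7 times the Arg1 level in acoustics-on replicates 1, 2 and 3, and 0.63, 1.45 and 0.61 times in acoustics-off replicates 1, 2 and 3. Nos2 stood at 18.9 and 19.2 FPKM in acoustics-on replicates 2 and 3, and Arg1 at 0.81 and 0.31 FPKM. Approximate reads for Arg1 were only 16.5 to 44.5 per library, so the step from 23.3 to 62.7 rests on few Arg1 reads. All 3 acoustics-on ratios were above all 3 acoustics-off ratios, with replicate 1 nearest to the acoustics-off values. These ratios are of FPKM as deposited. After correction for length and GC content, acoustics-on replicate 1 had 1.37 FPKM of Nos2 and 0.41 of Arg1. Acoustics-off replicate 2, with the highest ratio of its group, then had 0.42 and 0.32 FPKM. On the log2(FPKM + 1) scale Nos2 minus Arg1 averaged 2.64 ± 1.86 with acoustics on and -0.09 ± 0.20 with acoustics off (SD, n = 3 each; difference 2.72, two-sided exact permutation p = 0.10, the smallest p that 3 against 3 libraries allow).

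Genes with the pattern most like that of Nos2 were found by the root mean square, over the 6 libraries, of the difference between log2(FPKM + 1) values centred on each gene's acoustics-off mean. Among 10846 genes with a mean of at least 1 FPKM, the 5 nearest to Nos2 were Ptgs2 (0.34 log2 units), Ccl5 (0.52), Ccl7 (0.60), Rsad2 (0.60) and S100a8 (0.68). Ptgs2, the inducible cyclooxygenase gene, had 3.34, 21.8 and 25.4 FPKM in acoustics-on replicates 1, 2 and 3, and 0.76, 0.62 and 0.46 FPKM in acoustics-off replicates 1, 2 and 3. S100a8, a calcium-binding alarmin gene used as a neutrophil marker and also made by activated macrophages, had 1.52, 6.97 and 6.62 FPKM with acoustics on and 0.18, 0.18 and 0.09 FPKM with acoustics off. It is 1 of 5 neutrophil markers and the other 4 were not analysed here. Every library is of the RAW264.7 line and the labels name no other cell. Any part of neutrophils in the Nos2 values was not tested. The 5 nearest to Acod1 were Isg15 (0.13 log2 units), Gclm (0.28), Slc40a1 (0.37), Lcn2 (0.40) and Me1 (0.40). Isg15, a ubiquitin-like interferon-stimulated gene, had 25.6, 32.1 and 37.7 FPKM with acoustics on and 3.89, 3.47 and 3.06 FPKM with acoustics off. Genes picked for their likeness share the pattern by that choice. Gclm, Slc40a1 and Me1 encode a glutathione synthesis subunit, an iron exporter and malic enzyme, and each was lowest in acoustics-on replicate 2 within that group.

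**Figure D3:**
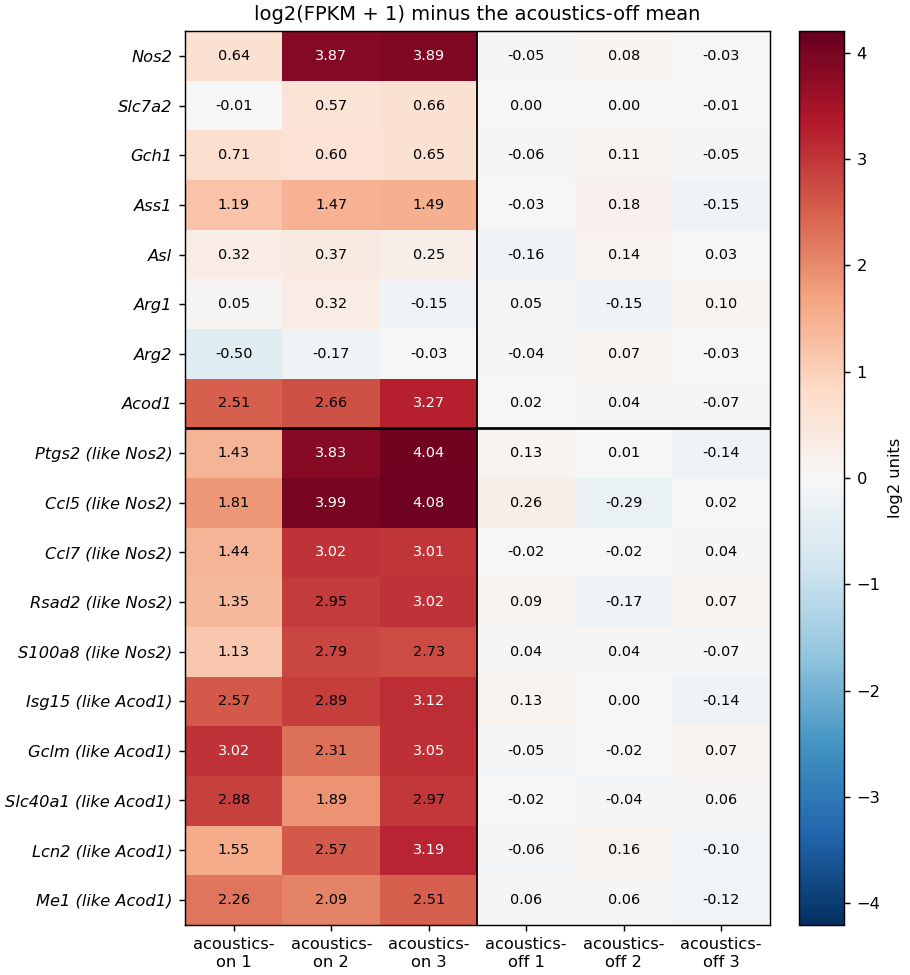
Log2(FPKM + 1) minus the acoustics-off mean (colour and printed number, log2 units) for the 8 genes and, below the line, the 5 genes most like Nos2 and the 5 most like Acod1, in each library. Nos2 stands at 0.64, 3.87 and 3.89 in acoustics-on replicates 1, 2 and 3, and Acod1 at 2.51, 2.66 and 3.27.

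Around these 8 genes, 8 lists of 138 further pathway genes were examined, of which 125 were in the table and 120 were tested. Of the 120, 0 rose and 1 fell (limma), beside 1.5% and 0.574% of all genes tested. At an unadjusted p under 0.05, 15 were higher and 11 lower, a share near the 19.7% of all genes tested that passed it in either direction. The authors' deposited table called 5 higher and 6 lower, beside 5.08% and 2.49% of its genes. For each list below, counts at an unadjusted p under 0.05 stand beside that same 19.7%. All acoustics-on libraries lay above all acoustics-off libraries for 27 of the 120 and below for 24, beside 17.1% and 17.7% of all genes tested. The gene that fell was Il10ra, which encodes the ligand-binding chain of the interleukin-10 receptor. It had 19.9, 34.3 and 20.3 FPKM in acoustics-on replicates 1, 2 and 3, and 61.0, 54.6 and 61.2 FPKM in acoustics-off replicates 1, 2 and 3. Its log2 difference was -1.26 (SE 0.22, limma adjusted p = 0.039), and the call was lost without any 1 of the acoustics-off libraries and without acoustics-on replicate 3.

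The list of cationic amino acid transport also holds the carriers of neutral amino acids Slc7a5 and Slc7a8 and the shared heavy chain gene Slc3a2. Of 9 tested, 0 rose and 0 fell (limma). At an unadjusted p under 0.05, 0 were higher and 1, Slc7a8, was lower, and the median log2 difference was -0.21, beside -0.03 over all genes tested. The constitutive carrier gene Slc7a1 had 6.72, 7.82 and 12.7 FPKM in acoustics-on replicates 1, 2 and 3, and 10.9, 9.31 and 8.72 FPKM in acoustics-off replicates 1, 2 and 3. It was thus far above Slc7a2 per length in every library, with overlapping groups (limma, log2 difference -0.12, adjusted p = 0.77). Of 8 other genes of tetrahydrobiopterin synthesis and recycling, 0 rose and 0 fell (limma), with 3 higher and 0 lower at an unadjusted p under 0.05 and a median of 0.30. Pts and Spr encode the enzymes that follow GTP cyclohydrolase. Pts had a log2 difference of 0.02 and Spr one of 0.26, and neither passed (limma, adjusted p = 0.95 and 0.56). Among 17 tested synthases, regulators and targets of nitric oxide, 0 rose and 0 fell (limma), with 1 higher and 0 lower at an unadjusted p under 0.05. The endothelial synthase gene Nos3 had 1.00, 0.57 and 0.54 FPKM with acoustics on and 0.46, 0.42 and 0.44 FPKM with acoustics off (limma, adjusted p = 0.35). Like Nos2, it passed the filter through its acoustics-on libraries alone, so its higher order there is partly built in.

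Downstream of the arginases, 0 of 17 polyamine genes rose and 0 fell (limma), with 6 higher and 2 lower at an unadjusted p under 0.05 (19.7% of all genes tested, either direction) and a median log2 difference of 0.26. Odc1, which encodes ornithine decarboxylase, the entry to polyamine synthesis, had 167.1, 74.7 and 154.5 FPKM in acoustics-on replicates 1, 2 and 3, and 59.1, 58.1 and 56.0 FPKM in acoustics-off replicates 1, 2 and 3. The groups did not overlap, but acoustics-on replicate 2 was far nearer to the acoustics-off libraries than the others, and it did not pass (limma, log2 difference 1.10, adjusted p = 0.12). The authors' deposited table called it higher (log2 fold change 1.19, adjusted p = 0.0028), with Sat1 (0.49), Azin2 (0.70), Akr1b3 (0.54) and Idh3a (0.50) the other pathway genes it called higher, named after their values were seen. Of 10 urea cycle and ornithine genes tested, 0 rose and 0 fell (limma), with 1 higher and 1 lower at an unadjusted p under 0.05 and a median of 0.08. Among 28 genes of the citrate, succinate and itaconate steps, 0 rose and 0 fell (limma), with 3 higher and 0 lower at an unadjusted p under 0.05 and a median of 0.04.

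Receptors and factors known to induce these enzymes were examined last. Of 20 listed for Nos2 and Acod1, 0 rose and 0 fell (limma), with 1 higher and 3 lower at an unadjusted p under 0.05, and the median log2 difference was -0.10. Of 12 listed for Arg1, 0 rose and Il10ra fell, with 0 higher and 4 lower at an unadjusted p under 0.05 (19.7% of all genes tested, either direction) and a median of -0.34. The authors' deposited table called Ifngr1 (-0.70), Irf8 (-0.59), Il4ra (-0.84), Klf4 (-0.95) and the transporter gene Slc7a8 (-0.73) lower beside Il10ra (-1.25), values that are its log2 fold changes. Ifngr1 encodes a chain of the interferon-gamma receptor, Il4ra the interleukin-4 receptor alpha chain, and Irf8 and Klf4 encode transcription factors. These 5 were named after their values were seen and did not pass here (limma, adjusted p from 0.11 to 0.13).

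**Figure D4:**
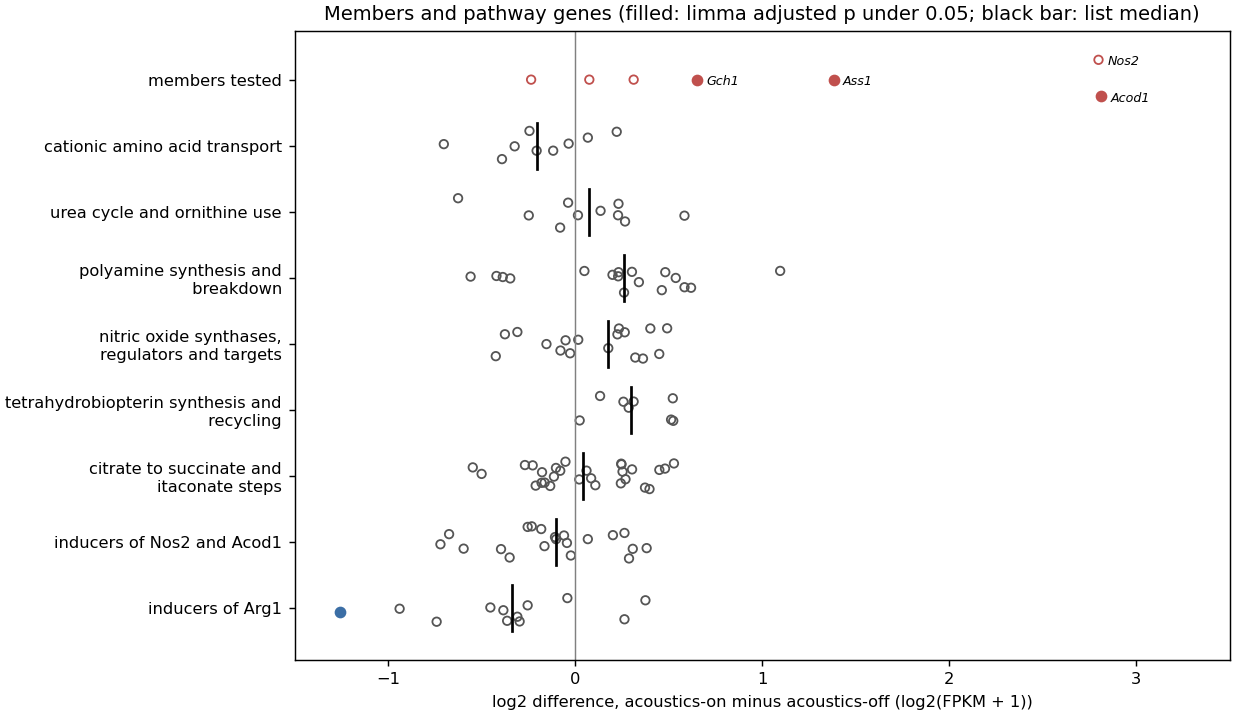
Log2 difference, acoustics-on minus acoustics-off (horizontal axis, log2(FPKM + 1) units), of the 7 tested genes (red, top row) and of the 120 tested genes of 8 pathway lists (1 row per list, circles, with the list median as a black bar). Filled points passed limma's threshold: Acod1, Ass1 and Gch1 at 2.81, 1.38 and 0.65, and Il10ra at -1.26.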

How the data were processed

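RNA-seq libraries of RAW264.7 cells, 3 acoustics-on and 3 acoustics-off, were grouped by their titles. Per the labels' protocols ribosomal RNA was depleted, while the molecule field says polyA RNA. Build GRCm38 is named in the submitters' processing notes, which also list, for the authors' work, DESeq2 1.38.2, Salmon 1.4.0, STAR 2.7.11 and Trim Galore 0.6.8 without parameters. FPKM values for every gene in each library were deposited by the authors. A second table, the authors' deposited comparison, gives for each gene a mean normalised count (a signal over all libraries), a log2 fold change with its error, a Wald score and p-values, with 1586 adjusted p missing.

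Counts per library were not used here, and the test was limma 3.58.1 in R 4.3.3 on log2(FPKM + 1), with a trended, robust prior, and Benjamini-Hochberg adjustment over all genes tested. Total read depth is unknown, and approximate reads came from the authors' mean normalised count. The script was tested on simulated data. Nothing in the labels says that replicate numbers pair the libraries or that the libraries came from separate cultures. The p-values thus measure only the spread between these libraries. The genes, lists and tests were chosen with earlier results of these data known. The rule named all 8 genes, up to 4 genes per list among those past the threshold and the 5 genes most like Nos2 and Acod1; the others named were singled out for their role or after their values were seen. Length and GC trends were loess fits (span 0.5) on the longest GENCODE M21 coding transcript, over genes with at least 1 FPKM on average. Promoters came from RefSeq. List genes were matched by symbol or RefSeq synonym.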

Additional observations from a re-analysis of the deposited data

How the results depend on the processing

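Acod1 kept its direction and its call in 20 of 20 alternatives (log2 difference 2.59 to 3.03), and Arg1, Arg2 and Asl passed in 0 of 19, 20 and 20. Nos2 passed in 4 of 20 alternatives. It did so with acoustics-on replicate 1 left out, with library quality weights (3.73) and in the authors' deposited table (5.16). It also passed with that library left out after correction for length and GC (3.89), a fit that was not planned. The weights set acoustics-on replicate 1 at 0.09, the lowest of the 6 libraries, so each limma pass removes or plays down that library. With 1 library left out Nos2 lay between 2.25 and 3.88. Without any other single library it did not pass (limma, adjusted p from 0.16 to 0.44). Gch1 lost its call with no filter (0.65, adjusted p = 0.064), with the same sum per library (0.64, adjusted p = 0.12) and with a replicate block (0.65, adjusted p = 0.15; 0.65 when length and GC were also corrected, adjusted p = 0.074), and it lay between 0.62 and 0.71 with 1 library left out. Ass1 passed in 17 of 20 alternatives and lay between 1.31 and 1.48 with 1 library left out. After the length and GC correction it was 1.18 (limma, adjusted p = 0.019, and 0.049 with a replicate block added). The Slc7a2 difference of 0.41, which did not pass with no filter (limma, adjusted p = 0.29), became 1.59 and 0.68 with pseudocounts of 0.1 and 0.5, 3.95 in the authors' deposited table, and 0.28 to 0.61 with 1 library left out. The cause of these shifts was not tested.

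The 175 genes higher and 67 lower became 116 and 34 with no filter, 1098 and 784 with library weights, 334 and 336 with the length and GC correction, 673 and 804 when acoustics-on replicate 1 was also left out, and 737 and 361 in the authors' deposited table. With 1 library left out they ranged from 14 to 554 higher and from 5 to 359 lower: 554 and 359, 243 and 154, and 63 and 15 without acoustics-on replicates 1, 2 and 3, and 18 and 14, 14 and 5, and 20 and 9 without acoustics-off replicates 1, 2 and 3. Lower calls were 32 with the same sum per library and 111 with quantile normalization. Of the pathway list genes, 0 higher and 1 lower in the main analysis, 18 and 7 were called with library weights, 3 and 5 with the length and GC correction, 7 and 13 when acoustics-on replicate 1 was also left out, 0 lower with no filter, the same sum per library or the replicate block, and 0 to 3 higher and 0 to 4 lower with 1 library left out. Nos2 minus Arg1 lay between 2.07 and 3.79 with 1 library left out (exact permutation p = 0.20, the smallest possible there).

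Same-numbered libraries did not deviate together (correlations of -0.07, -0.02 and -0.004 for replicates 1, 2 and 3). With 3 libraries per group this cannot settle whether they were paired. The replicate block left 133 genes higher and 46 lower. Low read numbers limit Slc7a2 and Arg1.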
